A study of Mus musculus with 44 samples.

Results

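The visual cortex of mice that had spent 1 week in darkness and then received 1 h of light was compared with that of mice taken directly from the dark, to ask which mRNAs change in abundance and which change in poly(A)-tail length when the cortex is activated in vivo. The comparison used 8 of the 44 samples in the series, chosen by their labels as visual cortex with no light (dark, 4 mice) or with light for 1 h (light, 4 mice). All mice were 6–7 weeks old and had been housed in the dark, and visual cortex was microdissected and its total RNA was sequenced by PAL-seq v2, a method that counts mRNA 3′ ends as tags and reads the length of the poly(A) tail on each tag. The study names C57BL6J as its mouse strain and used male mice for its work on animals past the neonatal stage. The visual cortex tissue came from a separate single-cell experiment with its own housing. Strain and sex are not given separately for these 8 mice. Each library holds a mixture of neurons, glia and vessels, so that fewer cells of a type and less RNA per cell cannot be told apart.

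Light after darkness drives synaptic activity in visual cortex, and calcium entry and MAP kinase signalling then switch on immediate-early genes without a need for new protein synthesis. The first of these encode transcription factors of the Fos, Jun, Egr and Nr4a families, whereas others encode proteins that act at synapses or that shut the signalling down again. A newly made mRNA receives a long poly(A) tail in the nucleus, which is shortened in the cytoplasm by deadenylases, so that the mean tail of an mRNA reflects in part how recently its molecules were made.

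Tags on genes ranged from 1233538 to 1753545 in 7 libraries and reached 4812273 in dark library 2. Log2 levels correlated between libraries of the same group with Pearson's r of 0.970–0.981 and between groups with 0.960–0.978, across genes, which are not independent replicates. The excitatory neuron markers *Slc17a7* (1294–1519 tags per 1000000 tags on genes, CPM) and *Camk2a* (1467–1871 CPM) were abundant in all 8 libraries, and markers of choroid plexus summed to only 4.75–10.9 CPM. Markers listed for the neighbouring hippocampus and thalamus summed to 398–617 and 211–238 CPM. How much of these came from tissue outside the visual cortex was not tested. The Y-linked mRNA *Ddx3y* was at 56.4–88.7 CPM in each of the 8 libraries.

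After 1 h of light, 116 genes were higher and 12 were lower than in the dark, of 9554 genes tested (edgeR quasi-likelihood test, adjusted p under 0.05), which is 1.21% and 0.126% of the genes tested. The increases were also the larger changes: 78 genes rose at least 2-fold, 27 at least 4-fold and 15 at least 8-fold, whereas 3 genes fell at least 2-fold. In 108 of the 116 risen genes, each light library lay above each dark library, as it did in 2.63% of all genes tested. All 12 fallen genes had each light library below each dark library, as did 3.13% of all genes tested. The called genes were chosen by the same contrast, so that their separation describes them and tests nothing. The median log2 change over all genes was -0.0047. Leaving out 1 library at a time kept the call of 88 of the 116 risen genes and of 3 of the 12 fallen genes in all 8 fits.

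**Figure D1:**
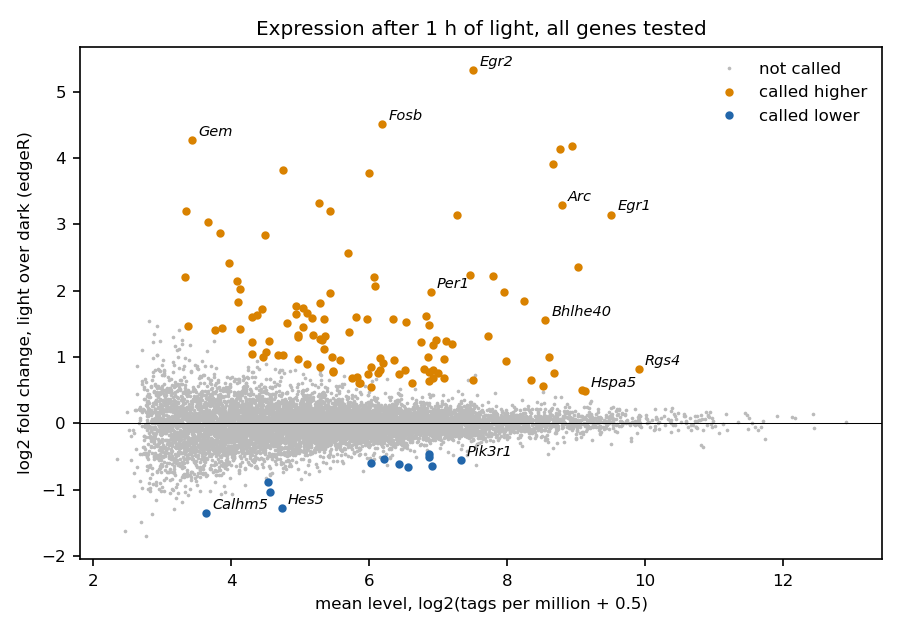
Log2 fold change of light over dark (y axis) against mean level as log2(CPM + 0.5) (x axis) for the 9554 genes tested, with the 116 genes called higher in orange, the 12 called lower in blue and the others in grey. *Egr2*, *Fosb* and *Gem* stand highest, with log2 changes of 5.33, 4.52 and 4.27, and the called decreases reach -1.35.

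Of 25 early transcription factors tested, 18 rose (72%, against 1.21% of all genes) and none fell, with a median log2 change of 1.57. All gene lists here were drawn up with earlier results of these data known, so that such shares test nothing. A gene could also pass the filter on low counts through the light libraries alone. *Egr2* (chr10:67534469-67542188, GRCm38.p6), a zinc-finger factor, was the most induced gene: it was at 0, 3.74, 15.6 and 27.4 CPM in the dark libraries and at 367, 509, 329.6 and 202 in the light libraries. The groups did not overlap, and the log2 change was 5.33 (SE 0.39, edgeR adjusted p = 2.99e-09). *Fosb* (chr7:19302696-19310118), an AP-1 subunit, rose from 6.64 ± 4.18 to 138 ± 51.6 CPM (SD, n = 4). *Fos* (chr12:85473890-85477274), its best-known relative, read 8.21, 19.1, 54.6 and 152 in the dark and 852, 990.2, 713 and 470.1 in light. The dark libraries thus spread over a wider ratio than the light libraries, although the highest dark library was still below the lowest light library. *Nr4a1* (chr15:101253902-101274795), an orphan nuclear receptor, rose from 51.3 ± 36.1 to 821 ± 243, and *Nr4a2* from 1.72 ± 1.18 to 17.6 ± 3.24 CPM. *Npas4*, a neuron-specific factor, rose 7.15-fold to 37.4 ± 14.9 CPM.

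The members of a family did not move by the same amount. Among the Egr genes, *Egr2*, *Egr4* and *Egr1* had log2 changes of 5.33, 4.18 and 3.15, and *Egr3* had 1.85 (SE 0.18). *Egr3* was already at 134 ± 20.9 CPM in the dark. Among the Jun genes, *Junb* rose by a log2 change of 2.36 (SE 0.41, edgeR adjusted p = 0.001), a call that DESeq2 did not make (adjusted p = 0.174), and *Jund* by 0.50 (SE 0.11, adjusted p = 0.0104), the latter call being lost without light library 3. *Jun* read 101, 117, 155 and 169.9 CPM in the dark and 253, 276, 179 and 125 in light, so that its groups overlapped and it did not pass the test (log2 change 0.66, SE 0.19, edgeR adjusted p = 0.0999). It passed when no filter on low counts was applied (edgeR adjusted p = 5.7e-05), as did *Btg2*, *Pnrc1* and *Vgf*, described below, at 0.00694, 0.00402 and 0.0165. *Nab2*, a corepressor that binds Egr proteins, lay outside the list and rose 3.35-fold from 16.1 ± 6.57 to 48.7 ± 1.29 CPM. *Srf*, the serum response factor that binds the promoters of many early genes, rose 1.68-fold from 64.6 ± 11.2 to 107 ± 13.1.

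Early effector genes, in a list with the same limits, moved as often. Of 27 tested, 19 rose (70.4%, against 1.21% of all genes) and none fell, with a median log2 change of 1.47. *Arc* (chr15:74669081-74672570), which controls trafficking of AMPA receptors, read 30.1, 28.1, 65.6 and 242 CPM in the dark and 982, 1076, 735 and 399 in light. Its log2 change was 3.29 (SE 0.43, edgeR adjusted p = 2.49e-05). *Gem*, a small GTPase that inhibits calcium channels, was nearly absent in the dark, at 0.760 ± 0.595 CPM, and reached 19.9 ± 5.36 in light. *Ptgs2*, the inducible cyclooxygenase, rose 8.17-fold to 20.2–23.6 CPM, with little spread between light libraries. *Bdnf* (chr2:109674700-109727043), a neurotrophin released by active neurons, read 13.7, 22.9, 25 and 18.5 in the dark and 56.7, 55.5, 69.0 and 58.8 in light. It rose 2.99-fold (log2 change 1.58, SE 0.18, edgeR adjusted p = 3.57e-06). Of 13 neurotrophin and receptor genes tested it was the 1 called (7.69%, against 1.21% of all genes). *Nptx2*, a secreted pentraxin that clusters AMPA receptors, rose 3.92-fold from 18.4 ± 8.24 to 66.9 ± 34.8 CPM. *Gadd45b* and *Tiparp* rose 10.1-fold and 9.18-fold.

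**Figure D2:**
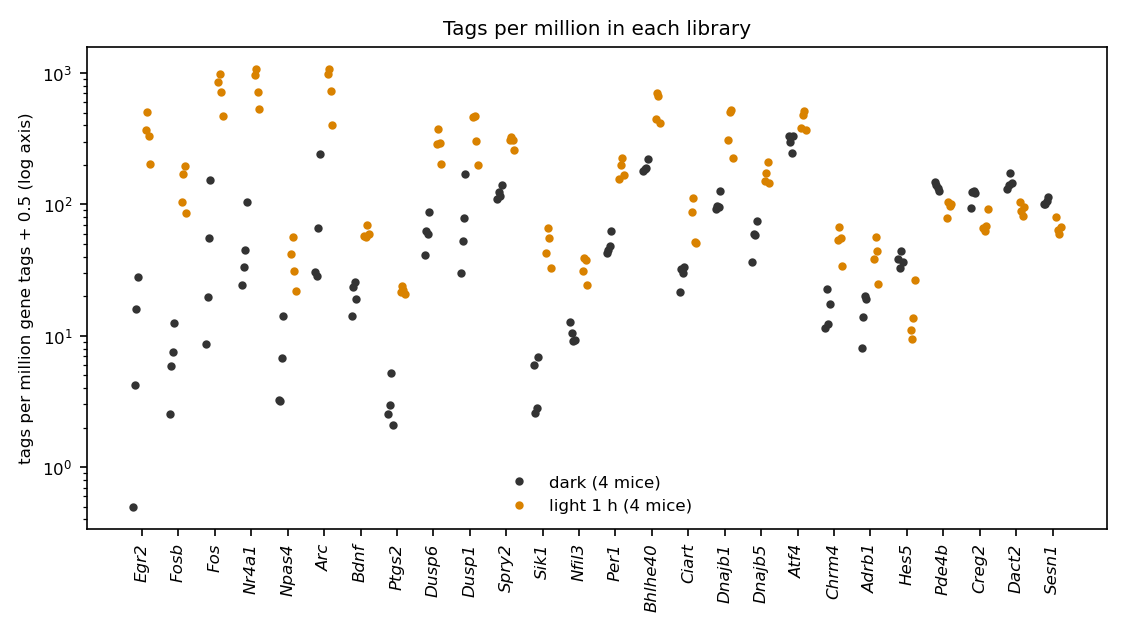
CPM + 0.5 (log axis) of 26 genes in the 4 dark libraries (black) and 4 light libraries (orange), 1 point per mouse, libraries 1 to 4 from left to right within a group. The early genes on the left cover a wide range among the dark libraries, with *Fos* between 8.21 and 152, and the 5 genes on the right, from *Hes5* to *Sesn1*, lie lower in light.

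The libraries of a group differed in how far the early genes had moved. Over the 116 risen genes, dark library 4 was the highest dark library for 61 and dark library 1 the lowest for 62. Among the light libraries, library 4 was the lowest for 70 and library 3 for 3. The median ratio to the dark mean over the 37 risen genes in either early list was 0.693 in dark library 1, 1.22 in dark library 4, 3.90 in light library 4 and 6.38 in light library 2. These genes were chosen by the same contrast, so that the values describe the spread between mice and test nothing.

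CREB and SRF are transcription factors that bind early promoters, CREB at the cAMP response element (CRE) and SRF at the CArG box. In the 300 bases from 250 before to 50 after the annotated start, the full CRE (TGACGTCA, a palindrome, so that both strands are covered) was found for 6 of 92 risen genes with a RefSeq promoter (6.52%) and for 1 of 11 fallen genes, against 3.51% of 7685 tested genes and 1.88% of 27025 promoters in all. The CArG box, searched on both strands, was found for 3 of the 92 (3.26%) and for 1 of 11 fallen genes, against 1.22% and 1.57%. Promoters with either motif made up 9.78% for risen genes, 18.2% for fallen genes (2 of 11) and 4.70% for tested genes. Of 2 other motifs searched on both strands, the Egr site (GCGGGGGCG) was found for 7.61% of risen, 6.19% of tested genes and 2.92% of all promoters, and the heat shock core (GAANNTTC) for 3.26%, 5.15% and 7.95%. No test was made of these shares, and a match is not a measured binding site. The following stretches of GRCm38.p6 are shown because they hold such a match (in capitals) in genes that rose: *Dusp1* at chr17:26508593-26508630 (minus strand), *Arl4d* at chr11:101665500-101665537 (plus strand), *Dio2* at chr12:90739111-90739148 (minus strand), and *Plk2* at chr13:110394967-110395004 (plus strand) with a full CRE, and *Srf* at chr17:46556200-46556259 (minus strand) with 2 CArG boxes.
Dusp1: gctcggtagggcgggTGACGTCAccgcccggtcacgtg
Arl4d: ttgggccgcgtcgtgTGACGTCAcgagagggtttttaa
Dio2: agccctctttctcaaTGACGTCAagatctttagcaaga
Plk2: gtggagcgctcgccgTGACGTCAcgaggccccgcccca
Srf: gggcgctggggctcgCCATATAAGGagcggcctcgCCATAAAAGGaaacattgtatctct

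AU-rich elements in 3′ UTRs mark many early mRNAs for rapid decay. The nonamer TTATTTATT was present in the annotated 3′ UTR of 17 of 115 risen mRNAs (14.8%), against 8.17% of all tested mRNAs. Among the risen mRNAs, 8 of 37 in either early list (21.6%) and 9 of 78 outside these lists (11.5%) held it. Among fallen mRNAs it was in 2 of 12 (16.7%), and no test was made of these shares. Median 3′ UTR length was 1318 nt for risen mRNAs and 1190.0 nt for all. The pentamer ATTTA, which the nonamer contains, occurred 2.31 times per kb of 3′ UTR in risen mRNAs and 1.88 times in all. Windows around the first nonamer (in capitals) are shown for *Fos*, *Tiparp*, *Ptgs2* and *Dusp1*, at chr12:85477103-85477131 (plus strand), chr3:65554880-65554908 (plus strand), chr1:150105790-150105818 (plus strand) and chr17:26506159-26506187 (minus strand).
Fos: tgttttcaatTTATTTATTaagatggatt
Tiparp: ttccacacaaTTATTTATTttgccctagt
Ptgs2: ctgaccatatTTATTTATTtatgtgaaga
Dusp1: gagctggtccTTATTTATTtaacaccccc

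Negative regulators of MAP kinase signalling rose in 5 of 13 cases (38.5%, against 1.21% of all genes) and none fell. *Dusp6*, a phosphatase of ERK, read 41.0, 62.8, 58.5 and 87.8 CPM in the dark and 289, 373, 291 and 204 in light (log2 change 2.24, SE 0.17, edgeR adjusted p = 7.01e-09). *Dusp1* rose 4.69-fold. *Spry2*, an inhibitor of receptor tyrosine kinase signalling, rose from 122 ± 13.0 to 301 ± 29.9 CPM, and *Dusp14* rose 2.01-fold from 263 ± 23.2 to 519 ± 141. *Errfi1*, an inhibitor of the EGF receptor, rose 1.72-fold, a call that was lost without dark library 1, dark library 2 or light library 1. *Spred1* was at 263 ± 25.8 in the dark and 238 ± 34.3 in light and did not pass the test.

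In the cAMP pathway, *Sik1*, a kinase that restrains CREB coactivators, read 5.47, 2.08, 2.34 and 6.44 CPM in the dark and 42.2, 65.1, 55.3 and 32.1 in light, a 14.1-fold rise. *Nfil3*, a basic leucine zipper repressor, rose 3.32-fold. *Crem*, which also encodes an inducible repressor of CRE-driven genes, rose 1.61-fold from 40.8 ± 4.68 to 65.4 ± 17.6 (log2 change 0.69, SE 0.17, edgeR adjusted p = 0.0391), a call lost in 5 of the 8 fits that left out 1 library (without dark library 1, 3 or 4, or light library 2 or 3). *Pde4b*, a phosphodiesterase that degrades cAMP, fell by 0.50 on the log2 scale from 137 ± 9.53 to 94.7 ± 11.2 CPM, and this call was lost without dark library 1 or 2 or light library 1 or 3. These 4 were the called genes of 24 tested in the list, of which 12.5% rose, against 1.21% of all genes.

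Of 20 circadian clock genes tested, 3 rose (15%, against 1.21% of all genes) and none fell. *Per1*, a repressor of the clock that responds to light and cAMP, read 42.4, 44.5, 47.6 and 62.8 CPM in the dark and 156, 200.5, 225 and 168 in light, so that its groups were well apart (log2 change 1.98, SE 0.14, edgeR adjusted p = 1.8e-09). *Bhlhe40*, a repressor of clock-driven transcription, rose 2.93-fold to 557 ± 149 CPM. *Ciart*, a further clock repressor, rose 2.59-fold to 75.1 ± 29.7. The median log2 change over the 20 genes was 0.08.

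Chaperone and stress lists held 1 or 2 called genes each, and none of them fell. Of 38 heat shock proteins and J-domain chaperones, 2 rose, both J-domain cochaperones of Hsp70: *Dnajb1* from 92.3, 96.0, 95.2 and 126 CPM in the dark to 309, 508, 524 and 226 in light, and *Dnajb5* 3.06-fold. This is 5.26% of the list, against 1.21% of all genes, and the median log2 change was 0.11. Of 21 genes of the unfolded protein and integrated stress responses, 2 rose (9.52%): *Atf4*, the main transcription factor of the integrated stress response, 1.47-fold (lost without light library 3), and *Hspa5*, the Hsp70 of the endoplasmic reticulum, 1.40-fold. *Hspa5* lost its call without dark library 3 or 4 or light library 2 or 3, and its groups overlapped. *P4ha1*, a collagen prolyl hydroxylase, was the 1 called of 16 hypoxia-responsive genes (6.25%) and rose 1.60-fold, and *Cdkn1a*, a cell cycle inhibitor, the 1 called of 15 glucocorticoid-responsive genes (6.67%), rose 3.10-fold. Of 17 inflammatory early genes with tags only 4 were tested. The 1 called (25%, against 1.21% of all genes) was *Apold1*, an early gene of vascular endothelium, which rose 5.36-fold. It had 6 to 12 tags in the dark libraries and 32 to 52 in light, and 4 genes are too few to compare with the share over all genes.

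In the lists for mRNA turnover, the share called was not far from that of all genes. *Tnrc6c*, a partner of Argonaute in miRNA silencing, was the 1 called gene of 34 for tail and decay machinery (2.94%, against 1.21% of all genes) and rose from 32.6 ± 5.14 to 55.6 ± 6.64 CPM. None of 12 deadenylase recruiters and decay adaptors was called by edgeR, 2 had an unadjusted p under 0.05, and DESeq2 called 1 (*Pnrc1*). *Btg2*, an early gene that recruits the CCR4–NOT deadenylase, read 40.4, 48.8, 161 and 333 in the dark and 293, 310.3, 172 and 124 in light and had a log2 change of 0.74 (SE 0.41, edgeR adjusted p = 0.608). *Pnrc1*, an adaptor of the decapping complex, was at 194 ± 42.3 in the dark and 260.3 ± 16.3 in light (log2 change 0.46, SE 0.12, edgeR adjusted p = 0.0547, DESeq2 adjusted p = 0.0266).

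Lists of synaptic proteins, channels and basal cell functions were read against the 1.21% of all genes called higher and 0.126% called lower. By edgeR no member was called of 17 ionotropic and 7 metabotropic glutamate receptors, 13 GABA receptor and synthesis genes, 26 postsynaptic scaffold and adhesion genes, 37 genes of vesicles and release, 26 of CaMK, calmodulin and calcineurin, 39 potassium channels or 24 sodium and calcium channels. Of these 189 genes, 13 (6.88%) had an unadjusted p under 0.05, against 9.45% of all genes, and DESeq2 called 1, *Syt4*, a synaptotagmin. The medians of the 8 lists lay between -0.10 and 0.07 on the log2 scale. Ribosomal proteins (53 tested, median -0.05), oxidative phosphorylation subunits (77, median 0.02) and proteasome subunits (34, median -0.01) held no called gene by edgeR or DESeq2 either, with 2 of 164 at an unadjusted p under 0.05. Of 24 granins and neuropeptides, 20 had a positive change, 4 had an unadjusted p under 0.05 and none was called by edgeR or DESeq2. *Vgf*, a secreted granin, was at 139 ± 26.3 in the dark and 185 ± 34.8 in light (log2 change 0.44, SE 0.14, edgeR adjusted p = 0.153).

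Cell type markers set the frame for these values. No gene was called by edgeR or DESeq2 among 22 astrocyte, 22 oligodendrocyte and myelin, 18 microglia, 13 vascular, 11 fibroblast and 15 inhibitory neuron markers. Of these markers, 11 (10.9%) had an unadjusted p under 0.05, against 9.45% of all genes. The 11 were 5 oligodendrocyte and myelin (22.7%), 4 inhibitory neuron (26.7%) and 2 astrocyte markers (9.09%). The 1 called gene of the 15 cortical layer markers was the early gene *Nr4a2*. None of 11 excitatory neuron or 9 oligodendrocyte precursor markers was called by edgeR or DESeq2. Their log2 changes were above 0 for 3 and 2 genes. Astrocyte markers had 6 of 22 above 0, microglia markers 6 of 18 and inhibitory neuron markers 11 of 15. Oligodendrocyte markers had a median log2 change of -0.33, with 2 of 22 above 0. Their summed level was 3071–5500 CPM in the dark and 2450–4004 in light, so that the groups overlapped (exact permutation test, two-sided p = 0.40). Summed fibroblast and meningeal markers ranged widely within groups, from 1774 to 6364 in the dark and from 1619 to 5673 in light. Their part in the results above was not tested.

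Outside the lists, 56 genes rose. *Chrm4*, a muscarinic acetylcholine receptor, read 10.9, 22.0, 11.7 and 16.9 CPM in the dark and 52.7, 66.4, 54.7 and 33.3 in light, a 3.16-fold rise. *Adrb1*, the β1-adrenergic receptor, rose 2.87-fold from 14.7 ± 5.52 to 40.3 ± 12.9. The largest increases outside the lists were those of *Arid5a*, an RNA-binding protein, with a log2 change of 2.21, and *Pvr*, a cell adhesion receptor, with 2.02. *Tnfaip6*, *Sertad1*, *Nab2*, *Grasp*, *Spty2d1*, *Dact1*, *Mest* and *Stk40* followed with log2 changes of 1.57 to 1.81. Chosen after their values were seen, *Ppp1r3g* and *Ppp1r3c*, which target protein phosphatase 1 to glycogen, rose 2.46-fold and 1.89-fold. *Dio2*, the deiodinase that makes active thyroid hormone, rose 1.70-fold from 96.2 ± 9.78 to 158 ± 27.7.

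The 12 decreases were small and less stable. *Hes5*, a repressor that Notch signalling switches on, read 37.6, 32.2, 43.7 and 36.2 CPM in the dark and 10.5, 8.94, 13.1 and 26.1 in light (log2 change -1.27, SE 0.26, edgeR adjusted p = 0.00574). It was the 1 called of 12 Notch pathway genes, whose median log2 change was -0.03. Of all genes 0.126% were called lower, and 12 genes are too few to compare with that share. *Dact2*, a regulator of Wnt signalling, fell by 0.64 on the log2 scale from 147 ± 17.9 to 92.6 ± 9.70, and *Sesn1*, a stress-responsive inhibitor of mTORC1, fell by 0.61 from 104.4 ± 6.13 to 67.3 ± 8.72. These 3 genes kept their call in all 8 fits without 1 library. *Creg2* fell by 0.66 and lost its call without light library 2, and *Oprl1*, the nociceptin receptor, fell by 0.60 and lost it without dark library 1, 2 or 4 or light library 3. *Calhm5*, with the lowest log2 value (-1.35), *Zc3h6*, *Orc5*, *Pik3r1*, *Bcl7a* and *Abhd17b* each lost their call in 3 to 6 of the 8 fits, and *Orc5* was not called by DESeq2 (adjusted p = 0.0803).

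Library mean tails moved with the recovery of long standards. The tag-weighted mean tail was 92.4, 91.0, 78.0 and 80.4 nt in the dark libraries and 83.7, 94.0, 97.8 and 82.0 nt in the light libraries. The difference of 3.92 nt was smaller than the spread within either group (exact permutation test, two-sided p = 0.486, where 0.0286 is the smallest p that 4 against 4 allow). Synthetic RNAs with tails of known length had been added to each sample, and 6.04% to 13.4% of their tags in the dark and 7.58% to 16.9% in light fell on standards of 200 nt or more (exact permutation test, two-sided p = 0.371). Over the 8 libraries the mean tail of genes and the share of long standards had the same order (Pearson's r = 0.991 and Spearman's rho = 1, exact permutation p = 5e-05 for each, the smallest possible), and r was 0.990 without the 2 libraries farthest in that share. The relation within groups was not tested, with 4 libraries in each, and the order was the same in both. Tails were capped near 250 nt, as the median of the 250-nt and 300-nt standards was 250 nt in dark library 1.

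**Figure D3:**
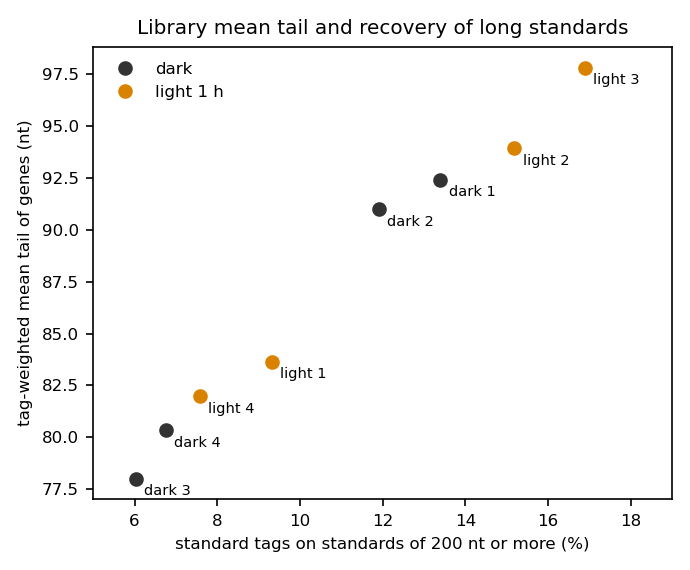
Tag-weighted mean tail of genes in nt (y axis) against the percentage of standard tags on standards of 200 nt or more (x axis), 1 point per library, dark in black and light in orange. Dark and light libraries lie along the same rising line, from dark library 3 (6.04%, 78.0 nt) to light library 3 (16.9%, 97.8 nt).

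Mean tail length was compared for the 4321 genes with at least 50 tags in each of the 8 libraries. Without correction for the libraries, where the fit pooled the variance of genes of like depth completely (infinite prior degrees of freedom), 8 genes (0.185%) had longer tails in light and none had shorter tails (limma, adjusted p under 0.05), while at an unadjusted p under 0.05 there were 143 longer and 1 shorter. Each of the 8 except *Egr3* lost its call when dark library 2, 3 or 4 or light library 2 or 3 was left out. When each library was centred on its median over genes, 43 genes (0.995%) had longer and 9 (0.208%) shorter tails, and these included the 8. A fit with the share of long standards as a covariate called 28 longer and 22 shorter, a nearly even balance, among them 27 of the 43 and all 9 in the same direction. The centred values are given below, and genes named from them alone were chosen after their values were seen. Of the centred calls, 17 of the 43 and 1 of the 9 were kept in all 8 fits that left out 1 library.

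*Egr3* (chr14:70077317-70082613) had the largest tail difference in the centred and the uncentred fit. Its mean tail was 86.4, 77.5, 70.8 and 84.7 nt in the dark and 121, 143, 139 and 107 nt in light, and no light value came near the dark values. The difference was 47.5 nt (SE 6.14, limma adjusted p = 4.57e-11), or 43.5 nt (SE 3.35, limma adjusted p = 3.86e-11) after centring. Among longer tails kept in all 8 fits *Dio2* came next, with 84.9, 90, 78.5 and 81.5 nt in the dark and 117, 118 and 107 nt in light libraries 2 to 4, with light library 1 lower than these but above each dark library, and a centred difference of 23.6 nt (SE 3.16, limma adjusted p = 1.23e-05). *Ifrd1*, a transcriptional coregulator, had a centred difference of 25.6 nt but overlapping groups, and its call was lost without dark library 2 or 3 or light library 2. *Trim9*, a ubiquitin ligase, *Kmt2a*, a histone methyltransferase, and *Crem* had centred differences of 22.4, 24.6 and 23.4 nt and each lost its call in 4 of the 8 fits. *Trim9* lost it without dark library 1 or 3, *Kmt2a* without dark library 1 or 4 and *Crem* without dark library 2 or 3, and all of them without light library 2 or 3.

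Tails also lengthened on mRNAs whose abundance was not called. *Spred1*, an inhibitor of Ras signalling with nearly the same tag level in both groups, had mean tails of 90.7, 87.2, 74.9 and 72.1 nt in the dark and 97.2, 111, 124 and 91.1 nt in light, a centred difference of 20.7 nt (SE 2.73, limma adjusted p = 1.23e-05). Secreted granins behaved likewise: *Vgf*, *Scg2* and *Chgb* had centred differences of 22.7 nt (SE 3.62), 18.2 nt (SE 2.68) and 11.2 nt (limma adjusted p = 0.00505), and they were the called genes of 15 granins and neuropeptides tested, whose median was 0.91 nt. *Mbp*, which encodes myelin basic protein and, from an upstream start, golli proteins, had a centred difference of 23.0 nt (SE 3.72). Its tags were counted on 1 annotated transcript, and which isoforms they came from was not examined. *Mbp* was the 1 called of 14 oligodendrocyte and myelin genes, whose median was -0.12 nt. In all, 32 of the 43 genes with longer tails had no called change in abundance.

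Tails were also compared between genes by their call in abundance. Of the 46 risen genes with enough tags, 11 (23.9%) were called longer and none shorter, against 32 (0.750%) and 9 of the 4267 genes with no call in abundance. Their median centred difference was 5.76 nt, against -0.31 nt, and no test was made between these groups of genes. The risen genes called longer included *Egr3*, *Ifrd1*, *Dio2*, *Crem*, *Mnt*, *Skil*, *Dusp14*, *Jund*, *Hspa5* and *Rgs4*. *Rgs4*, a regulator of G-protein signalling with 864–3634 tags per library, had the smallest of these differences, 8.83 nt (SE 1.64). By class, 2 of 7 MAP kinase inhibitors (*Dusp14* and *Spred1*), 2 of 8 early transcription factors (*Egr3* and *Jund*) and 2 of 12 early effectors (*Ifrd1* and *Rgs4*) were called longer. The share over all genes was 0.995%. *Jun*, 1 of the 8 early transcription factors, was called shorter. Of 15 clock genes and of 39 splicing factors, 2 each were also called longer. The clock genes, *Cry2* and *Csnk1d*, kept the call in 3 and 5 of the 8 fits that left out 1 library. Neither was called with the long-standard share as a covariate. The splicing factors called each lost the call in at least 1 of these fits. None of 36 ribosomal proteins was called, too few genes to tell apart from the share over all genes.

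Shorter tails were called for 9 genes after centring, and *Btg2* and *Jun*, both early genes, had the largest differences. *Btg2* had mean tails of 97.0, 96.4, 112 and 105 nt in the dark and 62.2, 76.4, 98.2 and 76.9 nt in light, a centred difference of -28.1 nt (SE 4.65, limma adjusted p = 0.000399) that was kept in all 8 fits. *Jun* had 85.0, 90.6, 85.9 and 93.3 nt in the dark and 74.2, 81.1, 81.2 and 71.3 nt in light, with no overlap between groups and a centred difference of -15.8 nt (SE 3.32, limma adjusted p = 0.00698), a call lost without dark library 4. The other 7 were *Napa*, a SNARE disassembly factor (-14.5 nt, SE 3.15), *Itpka*, a neuronal kinase of inositol trisphosphate (-8.80 nt, SE 2.03), and *Wdr7*, *Snn*, *Ncdn*, *Ypel3* and *Prkce*, with centred differences of -6.52 to -9.38 nt. All 7 had a called change of tail only after centring or with the covariate, and each lost its centred call without at least 1 library.

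**Figure D4:**
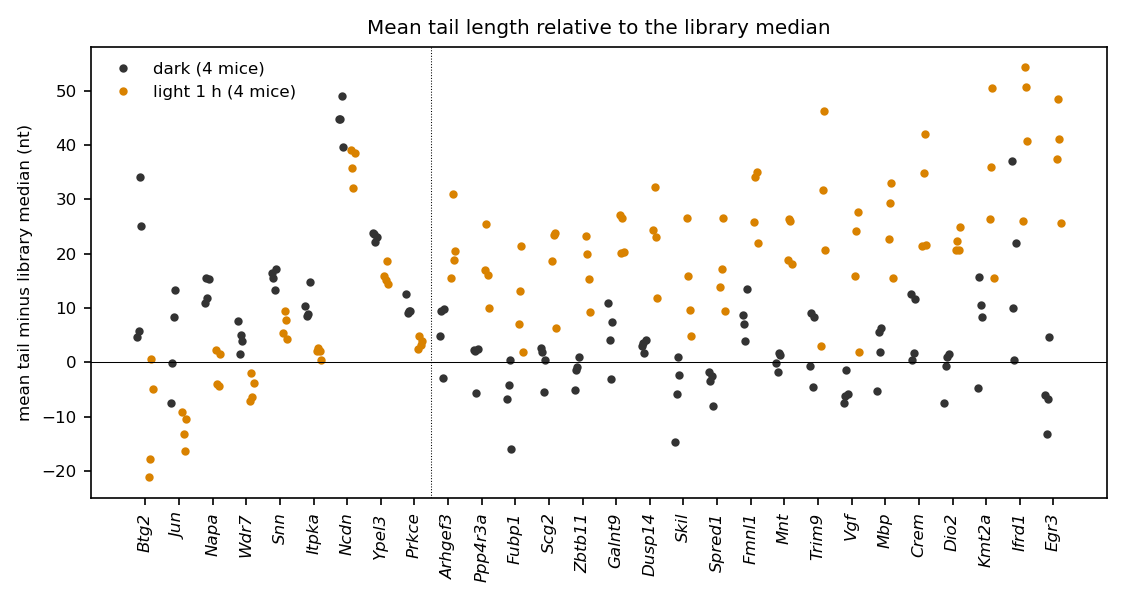
Mean tail length minus the library median in nt (y axis) for the 9 genes called shorter (left of the dotted line) and 19 of the 20 with the largest differences among the 43 called longer, 1 point per mouse, dark in black and light in orange. *Egr3* on the far right moved by 43.5 nt and *Btg2* on the far left by -28.1 nt, and the groups of *Ifrd1*, *Kmt2a* and *Trim9* overlap.

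Most of the strongly induced mRNAs had too few tags in the dark for a tail comparison, but 83 of the 116 had at least 50 tags in each light library and their tails could be ranked there among 4635 genes. They were spread over the whole range, with a median percentile of 53.6. Of these, 27 lay above the median of all genes in each light library while 20 lay below it in each. The same counts were not made for all 4635 genes, so that they do not set the risen mRNAs apart from other genes. At the upper end, *Gadd45b* had a mean tail of 128 ± 4.53 nt (SD, n = 4; mean percentile 99.7), *Midn* 130.4 ± 18.2 nt (percentile 99.1), *Egr3* 127 ± 16.3 nt and *Bdnf* 114 ± 22.8 nt (percentile 93.7). At the lower end, *Tiparp* had 62.0 ± 9.63 nt (percentile 0.712), *Dusp1* 68.2 ± 9.81 nt (percentile 3.37) and *Fos* 79.0 ± 4.81 nt (percentile 16.4). *Tiparp* and *Gadd45b* rose by nearly the same factor. The nonamer TTATTTATT shown above was found in 3 of 21 risen mRNAs with tail ranks in the lowest 25% and in 4 of 25 with ranks in the highest 25% (14.3% and 16.0%).

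**Figure D5:**
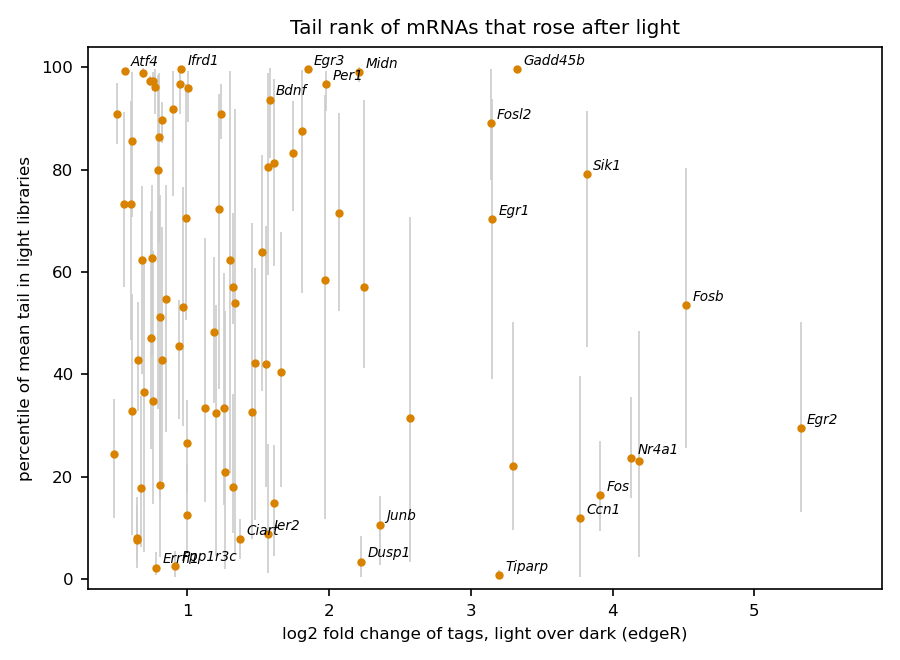
Percentile of the mean tail among 4635 genes, averaged over the 4 light libraries (y axis; grey lines run from the lowest to the highest library), against the log2 fold change of tags (x axis) for the 83 risen genes with at least 50 tags in each light library. Ranks run from *Tiparp* at the bottom (percentile 0.712) to *Ifrd1* at the top (percentile 99.8), and *Gadd45b*, with a log2 change of 3.33 beside 3.20 for *Tiparp*, lies close to the top.

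Cultured cortical neurons of the same series had been stimulated for shorter times, with BDNF or glutamate and glycine at 14 days in vitro and with KCl at 10 days, and their tails read by TAIL-seq, with 1 library per condition, so that times and assays differ from those in the mice and only the values are set side by side. Of the genes that rose in visual cortex, 15 of 99 measured were more than 2-fold higher with BDNF (15.2%), 14 of 98 with glutamate and glycine (14.3%), 3 of 82 after the shorter KCl treatment (3.66%) and 15 of 96 after the longer one (15.6%). The shares over all genes were 0.947%, 1.05%, 1.71% and 2.27%. BDNF and glutamate and glycine share 1 control library, and so do both KCl treatments. Of the 43 genes with longer tails in light, 59.4% of 32 measured had a change above the median of all genes with BDNF and 59.4% of 32 with glutamate and glycine, and 40.7% and 44.4% of 27 after the shorter and the longer KCl treatment. Their median changes relative to that of all genes were 2.68, 0.72, -2.56 and -0.96 nt. The change of the *Egr3* tail relative to the median of all genes was 23.5 nt with BDNF and 19.5 nt with glutamate and glycine, in the same direction as the 43.5 nt in light. For *Btg2* it was 30.8 nt with BDNF, -0.42 nt with glutamate and glycine, and 5.61 nt and 33.2 nt after the shorter and the longer KCl treatment. For *Jun* the values were 28.5, 21.3, -0.21 and 11.8 nt in the same order. Both genes had shorter tails in the visual cortex after light.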

How the data were processed

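Visual cortex of 8 mice was analysed by PAL-seq v2. For alignment to mm10 the authors used STAR, v2.5.4b in their methods and 2.4.2 in the submitters' processing notes. Gene assignment used bedtools v2.26.0, and a Gaussian hidden Markov model called the tails. The deposited values used here are the tag count and the tail length in nt per transcript accession. Symbols came from RefSeq GRCm38.p6 and GENCODE M21 (14438 of 14481 accessions). Standards, 1.41–3.33% of tags, were left out of library sizes.

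Tag counts were tested with edgeR 4.0.16 (filterByExpr, TMM, quasi-likelihood) and mean tails with limma 3.58.1 (trend on log2 tags), in a model of group alone, at a Benjamini-Hochberg adjusted p of 0.05. Both were tested on simulated data. Members and the 49 gene lists were chosen with earlier results of these data known. The rule named up to 4 called members of each list with the largest change (8 for the 2 immediate-early lists), or the 2 with most tags where none was called, the 12 largest changes each way outside the lists, the 15 largest tail changes each way and every gene called for both. Other genes were named after their values were seen. Nothing in the sources used here says whether same-group libraries differ in batch. DESeq2 1.42.0 and other settings served as alternatives. The results of 1 gene are not reported here.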

Additional observations from a re-analysis of the deposited data

Results flagged for a closer look

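Within a group of 4 libraries, a value was singled out when its gap to the nearest other value divided by the range exceeded Dixon's 95% critical value, and chance alone singles out about 1 in 20 groups. This held for 10 of 236 groups. The tags on genes of dark library 2 (4.8123e+06) stood above the other dark libraries. Dark library 4 was high for *Ccn1* (25.8 CPM), *Dnajb1* (126), *Dact1* (12.9) and *Stk40* (41.9), and dark library 1 was low for *Creg2* (93.7). Light library 3 was low for *Oprl1* (39.9 CPM). For mean tails, dark library 2 was high for *Kmt2a* (106 nt) and *Skil* (84.9 nt), and light library 4 was low for *Skil* (86.5 nt).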

How the results depend on the processing

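The number of genes called for abundance was 128, and 126 with DESeq2, 128 with RLE size factors, 127 with library size only, 192 (162 higher, 30 lower) without a filter on low counts, and 55 (46 higher, 9 lower) with at least 50 tags in each library, a filter that removes many induced genes because they have few tags in the dark. List members called numbered 62, and 25 with that filter. Leaving out 1 library gave 100 to 150 genes and 54 to 70 list members. For mean tails, 8 calls became 1 on a log2 scale, 13 (10 longer, 3 shorter) at 25 tags, 52 with centred libraries and 50 (28 longer, 22 shorter) with the long-standard share as a covariate, and 1 to 18 without 1 library. The 52 centred calls became 29 with median tails and 25 to 79 without 1 library (34 without dark library 2, 28 without dark library 4, 25 without light library 2 and 79 without light library 4). The mean tail of libraries differed by 1.09 to 6.37 nt and the long-standard share by 1.17 to 4.27 percentage points without 1 library. With a replicate block, 113 genes were called for abundance, 1 for mean tail and 55 for centred tails. Deviations of same-numbered libraries from their group means correlated over genes with Pearson's r of -0.196 to 0.0405, which was not tested. These values cannot show whether such libraries share a batch. The uncentred tail difference of *Prkce* changed sign without dark library 1 (0.70 nt), the values without 1 library lying between -5.26 and 0.70 nt. Of 1157 abundance values over 86 named genes, 1079 kept their side of the threshold, 70 lost the call, 8 gained one and none changed direction. Mean tails were less stable against the uncentred fit. Of 803 values over 29 named genes, 517 kept their side, 63 lost the call, 222 gained one and 1 changed direction. The settings that use median tails, or that combine centring with another change, were chosen after seeing the data. The causes of these changes were otherwise not tested. Depth limits the comparison of tails to 4321 genes.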
